A study of Homo sapiens with 3 samples.

Results

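The genes described here encode the heterogeneous nuclear ribonucleoproteins (hnRNPs), the serine/arginine-rich (SR) proteins and a few related splicing factors, set here against sites of SOX4 mapped in BT549 cells by ChIP-seq, the sequencing of DNA that an antibody pulls down with its protein. They were taken by name from the RefSeq GRCh38 table: 26 protein-coding genes with symbols that begin with HNRNP, 12 with symbols of SRSF and a number, and the other 5, RBM39, TRA2A, TRA2B, U2AF1 and U2AF2. Together they are 43 of the 20037 protein-coding genes on the assembled chromosomes. BT549 is an established human triple-negative breast cancer line, and all 3 libraries, named replicates 1, 2 and 3, came from these cells at passage 5 with 1 Abcam antibody against SOX4, a transcription factor of the high-mobility-group family. They form 1 group, with neither a treated group nor an input or IgG control among the libraries analysed. The titles of the 3 libraries all carry the tag UT and do not give its meaning. The labels do not say that the libraries came from separate cultures, so the spread between them may be technical. The authors deposited 1 list of summits, each of 1 bp, per library, with 1368, 1713 and 4430 summits. Each summit carries a score of the authors, the −log10 of its p-value or q-value (which of them is not given in the sources used here), and scores are read here only within their own list. Read numbers and peak heights were not used here, so depth is unknown, and the list of replicate 3 is by far the longest.

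During splicing, introns are cut from a new transcript by the spliceosome, and proteins bound to that transcript decide which splice sites are used. SR proteins bind enhancer sequences in exons through RNA recognition motifs and recruit the splicing machinery through domains rich in arginine and serine. The hnRNPs coat nascent transcripts and often oppose that recruitment. U2AF2 and U2AF1 form the dimer that reads the polypyrimidine tract and the AG at the 3′ splice site, and RBM39 is a related factor, known as the protein that aryl sulfonamides such as indisulam mark for degradation. Many of these genes control their own output by splicing in poison exons.

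A summit lay within 5 kb of either gene end in at least 1 library for 17 of the 43 splicing factor genes (39.5%), against 17.8% of all coding genes. At least 2 libraries had a summit there for 8 of the 43 (18.6%), against 3.91% of all coding genes, and all 3 libraries for 4 (9.3%), against 1.07%. Replicate 1 gave 5 of the genes (11.6%, against 3.69% of all coding genes), replicate 2 gave 8 (18.6%, against 3.36%) and replicate 3 gave 16 (37.2%, against 15.7%), a mean of 9.67 ± 5.69 genes (SD, n = 3). The genes were chosen by name with earlier results of these libraries known, so the shares are a description and no test of them was made. Replicate 3 alone supplied 8 of the 17 (18.6% of the 43, against 12.0% of all coding genes). Without it, 9 of the 43 had a summit (20.9%), against 5.75% of all coding genes, and 4 had summits of both other libraries (9.3%, against 1.3%). Without replicate 2, 5 genes had summits of both others (11.6%, against 2.41%).

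**Figure D1:**
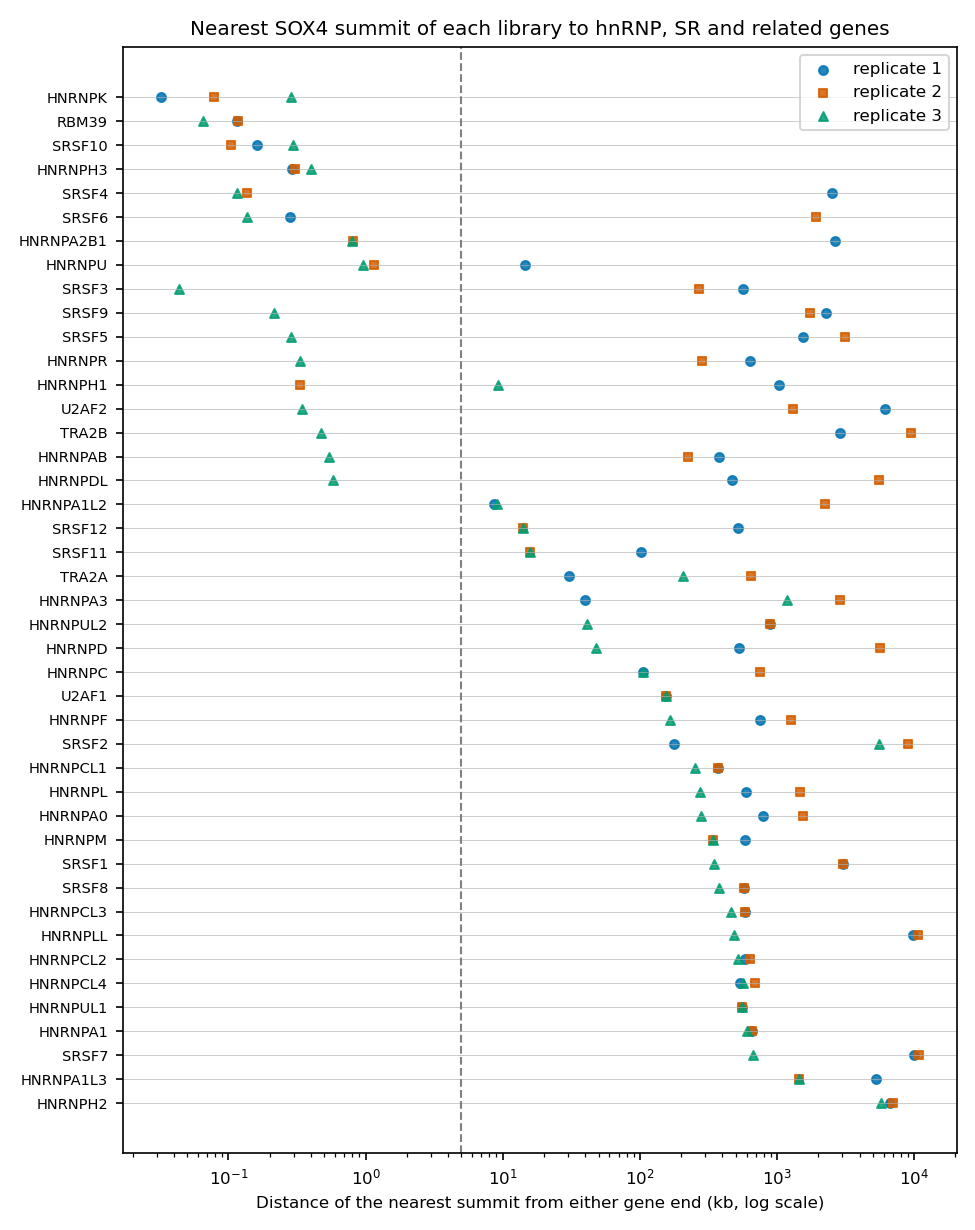
Distance in kb (log scale) of the nearest summit of each library from either end of each of the 43 genes, 1 point per library, ordered by the number of libraries within 5 kb (dashed line) and then by distance. The 17 genes at the top have a summit of at least 1 library within 1 kb, and the nearest summit of any other gene is at 8.70 kb.

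The distances left a wide gap around the 5 kb limit. Each of the 17 genes had its nearest summit within 1 kb, the farthest being HNRNPU at 963 bp. The closest of the others was HNRNPA1L2, a copy of the HNRNPA1 gene, at 8.70 kb in replicate 1 and 9.11 kb in replicate 3. SRSF12 followed at 14.1 kb and SRSF11 at 15.7 kb. Over all 43 genes, the median distance to the nearest summit was 573 kb in replicate 1, 654 kb in replicate 2 and 48.0 kb in replicate 3, against 911, 1023 and 155 kb over all coding genes.

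RBM39 carried the highest score of the 43 genes in replicates 1 and 2. The gene lies on chromosome 20, 35701347 to 35742260, and all 3 libraries had a summit just outside its upper coordinate, at 115 bp in replicate 1 (position 35742375), 118 bp in replicate 2 (35742378) and 65 bp in replicate 3 (35742325). The summits thus spanned 53 bp, and no other gene of the RefSeq table had an end within 1 kb of any of them. Their scores were 80.2, 40.4 and 8.97 in replicates 1, 2 and 3. Within its own list the summit ranked 10 of 1368 in replicate 1, 38 of 1713 in replicate 2 and 467 of 4430 in replicate 3.

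Among summits within 1 kb of any coding gene end, the RBM39 summit was first in replicate 1 (of 515) and first in replicate 2 (of 464). The second-highest scores there were 31.2 and 25.8. In replicate 3 it was 192 of 2364, where the highest score at a gene end was 22.3. RBM39 was picked for display because of these values, so they describe the site and support nothing further. Its promoter sequence was not used here.

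HNRNPK, whose KH domains bind C-rich RNA and DNA, had the summit closest to a gene end among the 43 genes in replicate 1. The gene runs on the minus strand of chromosome 9 from its start at 83980615 to 83968083. The nearest summit was 32 bp before the start in replicate 1 (score 11.4), 79 bp after it in replicate 2 (score 9.76) and 287 bp before it in replicate 3 (score 5.00). The libraries therefore placed it over 366 bp, on both sides of the start. Replicates 1 and 2 put it above 83.1% and 83.9% of their lists, counting ties, and replicate 3 above 38.7%. A further replicate 3 summit lay 757 bp inside the gene with a score of 6.09. RMI1, which encodes a partner of the BLM helicase, has an end 177 to 543 bp from the 3 summits, so ends of both genes lie close to every summit.

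HNRNPH3, of the hnRNP H/F family that binds G-rich RNA, held the tightest group of summits of 3 libraries after RBM39. On chromosome 10, where the gene spans 68331693 to 68343196 on the plus strand, the summits lay at 68331982, 68331997 and 68332091 in replicates 1, 2 and 3, a spread of 109 bp. They were 289, 304 and 398 bp inside the gene end, with scores of 8.62, 9.62 and 7.78. RefSeq gives this gene 3 starts. Relative to the second, at 68332064, the summits were 82 bp before, 67 bp before and 27 bp after it. An end of PBLD lay 837 to 946 bp away.

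SRSF10, an SR protein known as a splicing repressor when dephosphorylated after heat shock, was the only SRSF gene with a summit of all 3 libraries near an end. It lies on the minus strand of chromosome 1 with its start at 23980327. The summits were 161 bp after the start in replicate 1 (score 6.84), 105 bp before it in replicate 2 (6.80) and 294 bp after it in replicate 3 (11.4). The replicate 3 summit stood at rank 226 of 4430, the highest of the 43 genes in that library, RBM39 included. The summits spanned 399 bp, more than at HNRNPK, HNRNPH3 or RBM39.

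**Figure D2:**
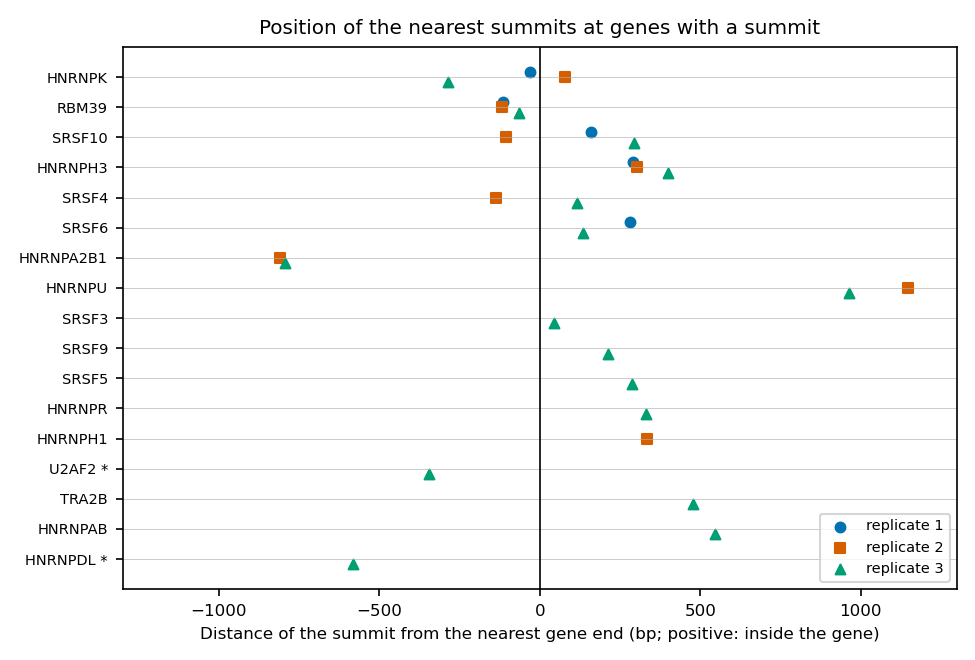
Position of the nearest summit of each library that has one within 5 kb of the gene, at the 17 genes, in bp from the nearest gene end, positive inside the gene. All but that of HNRNPU in replicate 2 (1146 bp) lie within 1 kb, and the 3 libraries of RBM39 fall together at 65 to 118 bp outside the gene. At the genes marked with an asterisk the summit is at the end that is not the annotated start.

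Another 4 genes had a summit of 2 libraries. SRSF4, an SR protein with a long arginine and serine domain, had one 136 bp before its start in replicate 2 (score 6.76) and one 115 bp after it in replicate 3 (5.69), on chromosome 1 around 29181900. The nearest summit of replicate 1 was 2527 kb away. SRSF6, a related SR protein on chromosome 20, had summits 282 bp after its start in replicate 1 (score 6.46) and 136 bp after it in replicate 3 (6.56). HNRNPA2B1, an RNA-binding protein also known for sorting of microRNAs, had them 811 bp before its start in replicate 2 (score 3.09, above only 2.45% of that list, ties counted) and 794 bp before it in replicate 3 (6.42). Those were nearer to CBX3, the gene of the heterochromatin protein HP1 gamma, at 114 and 97 bp. HNRNPU, a nuclear scaffold protein, had summits 1146 bp after its start in replicate 2 (score 4.09) and 963 bp after it in replicate 3 (4.95), and replicate 1 had none within 14.6 kb. Of the 8 genes with summits of at least 2 libraries, 7 had 2 summits joined by a gap of at most 200 bp, called a reproducible region here (16.3% of the 43, against 2.97% of all coding genes). SRSF4, with 251 bp between its summits, was the exception. Leaving out replicate 1, 2 or 3 gave 4, 4 and 3 genes with such a region, against 1.53%, 1.72% and 1.06% of all coding genes.

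The remaining 9 genes had a summit of 1 library, which was replicate 3 for 8 of them. Closest to its start was SRSF3, the smallest SR protein, at 44 bp (score 4.84). SRSF9 followed at 214 bp (4.13), SRSF5 at 286 bp (9.27), HNRNPR at 330 bp (7.42), TRA2B, a splicing activator related to the fly transformer-2 protein, at 477 bp (5.44), and HNRNPAB at 545 bp (4.30). Every one of these 6 lay inside the gene. SRSF5 was the strongest of them, above 90.7% of its list counting ties, and SRSF9 the weakest, above 17.0%. HNRNPH1 had its summit in replicate 2, 334 bp after the first of its starts (score 6.01).

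At a pair of genes the summit of replicate 3 was at the end that is not the start. For U2AF2 it lay 345 bp past the far end and 165 bp from an end of EPN1, the gene of the endocytic protein epsin, with a score of 3.65 near the bottom of its list (6.66%). For HNRNPDL the nearest summit lay 581 bp past the far end, and another was 973 bp after an annotated start, with scores of 6.02 and 6.69. In all, 6 of the 17 genes had an end of another coding gene within 1 kb of the summit. For 3 of them, HNRNPA2B1, HNRNPU and U2AF2, that other end was nearer in at least 1 library. The same counts were not made over all coding genes with a summit, so the usual rate is not known here. Which of the paired genes a summit belongs to cannot be told apart here.

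**Figure D3:**
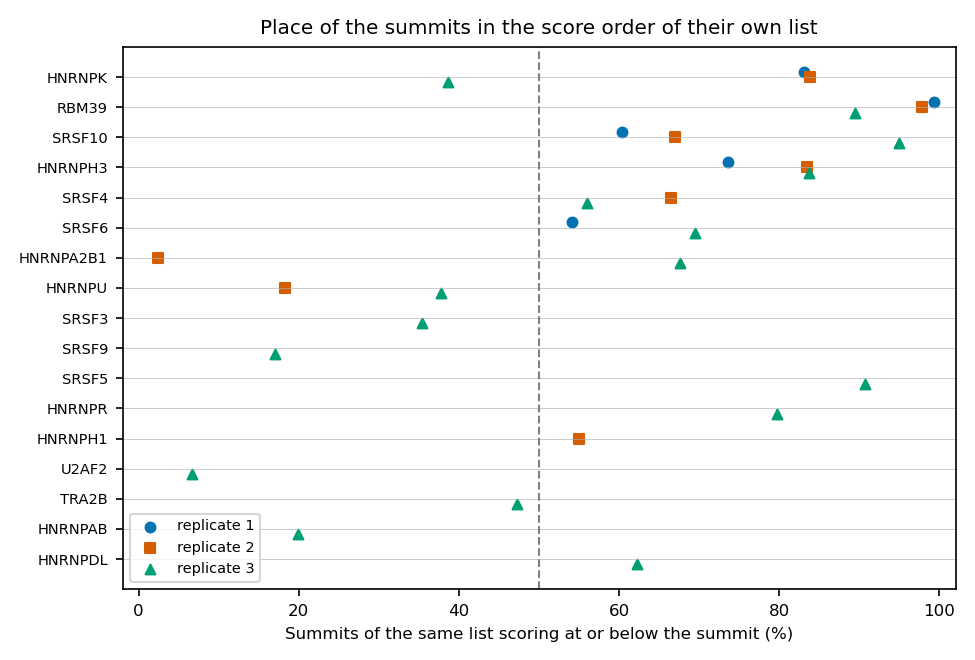
Share of summits of the same list (%) that score at or below each gene's nearest summit, for the 17 genes and each library with a summit within 5 kb; the dashed line is the middle of a list. RBM39 is at 99.3, 97.8 and 89.5% in replicates 1, 2 and 3, while HNRNPA2B1 in replicate 2 is at 2.45%.

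The scores of the splicing factor summits lay above the middle of their lists in replicates 1 and 2. In replicate 1 none of the 5 fell below the list median of 6.12, and their own median was 8.62. In replicate 2, 2 of 8 fell below the list median of 5.57, and their median was 6.78. In replicate 3, 7 of 16 fell below the list median of 5.58 and their median was 5.86. Apart from RBM39, the highest scores were 11.4, 9.76 and 11.4 in replicates 1, 2 and 3.

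Summits of replicate 3 mostly lay after the start. Among the 37 genes with a start in the promoter table, 16 had a replicate 3 summit within 1 kb of a start, and 13 of these were after it (81.2%), against 65.7% for all coding genes with a start. In replicate 1 the count was 2 of 4 (50.0%, against 44.9%) and in replicate 2 it was 3 of 7 (42.9%, against 46.6%). The median position was 175 bp after the start in replicate 3, against 101 bp for all coding genes.

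Starts inside a gene lay beside summits of SRSF11 and HNRNPH1 that are over 5 kb from the gene ends. SRSF11, an SR-related protein, has a second RefSeq start at 70221380 on chromosome 1, some 15.7 kb inside its span. Summits lay 47 bp after it in replicate 2 (score 7.82) and 123 bp after it in replicate 3 (10.7, above 94.1% of the list, ties counted). At HNRNPH1, a G-rich RNA binder with 4 starts, replicate 3 had a summit 33 bp before an inner start (score 9.34) and another 246 bp after a further one (4.55). With distances taken from starts alone, 16 of 37 genes were within 5 kb of a summit in 1 library or more (43.2%, against 17.2% of 15843 coding genes with a start), and 9 had summits of at least 2 libraries (24.3%, against 3.5%).

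The promoter sequences of the genes with summits of several libraries are shown because 4 of them hold the same CG-rich word. The 250 bases before each start were searched on both strands for the words AACAAT and ACAAAG, which SOX proteins are known to bind, and for CCGGAAG (ETS), CCAAT (NFY), GGGCGG (GC box), CATGCGC (NRF1), AAGATGG (YY1), the TATA-box word TATAAA, and TCGCGAG. The last is part of a palindrome that the protein BANP is known to bind in CpG-island promoters. In each of the 5 splicing factor genes that hold this word here, a match on one strand overlaps a match on the other. The RefSeq sequences below, on GRCh38.p14, read 5′ to 3′ on the strand of the gene and end at the base before the start, with every matched word in capitals. For HNRNPK they are those of chr9:83980616-83980865 (minus strand), for SRSF10 chr1:23980328-23980577 (minus) and for SRSF4 chr1:29181901-29182150 (minus). For HNRNPH3, 30 bases around the word are shown, chr10:68331971-68332000 (plus).
HNRNPK: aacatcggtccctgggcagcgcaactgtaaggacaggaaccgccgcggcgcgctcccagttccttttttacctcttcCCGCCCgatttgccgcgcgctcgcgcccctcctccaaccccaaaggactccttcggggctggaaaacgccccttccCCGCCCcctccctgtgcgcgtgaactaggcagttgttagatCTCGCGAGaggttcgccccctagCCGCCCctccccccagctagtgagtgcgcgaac
SRSF10: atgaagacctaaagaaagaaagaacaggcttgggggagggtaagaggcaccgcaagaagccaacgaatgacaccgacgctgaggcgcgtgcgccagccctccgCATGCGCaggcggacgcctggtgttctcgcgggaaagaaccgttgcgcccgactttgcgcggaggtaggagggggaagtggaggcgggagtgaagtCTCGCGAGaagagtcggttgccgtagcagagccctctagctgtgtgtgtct
SRSF4: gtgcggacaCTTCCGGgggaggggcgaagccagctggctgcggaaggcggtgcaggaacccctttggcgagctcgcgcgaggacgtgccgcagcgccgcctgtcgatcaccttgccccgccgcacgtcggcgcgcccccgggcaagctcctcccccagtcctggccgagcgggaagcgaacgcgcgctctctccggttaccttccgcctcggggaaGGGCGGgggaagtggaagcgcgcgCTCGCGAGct
HNRNPH3: gactttcccgtCTCGCGAGagtggggccgg

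The distance of the summits from the word TCGCGAG differed between genes and libraries. In HNRNPH3 the summit of replicate 1 was base 12 of the stretch shown, the first base in capitals, and that of replicate 2 was base 27. Measured from the middle of the word, the summits of HNRNPH3 were 4, 11 and 105 bp away in replicates 1, 2 and 3. Those of HNRNPK were 20, 131 and 235 bp away, and the replicate 1 summit was base 219 of the sequence shown. In SRSF10 they were 208, 58 and 341 bp away, and the replicate 2 summit was base 146. In SRSF4 the summits of replicates 2 and 3 were 130 and 121 bp away. A 5th gene with the word was HNRNPUL1, whose nearest summit of any library was 552 kb from the gene.

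Of the 10 windows before starts of the 7 genes with summits of at least 2 libraries (all but RBM39), 4 held TCGCGAG (40.0%). None of 13 windows of genes with 1 library did, and 1 of 28 windows of genes with none (3.57%), against 2.65% of the 22199 windows of all coding genes. The SOX words AACAAT and ACAAAG were in none of the 10 windows. AACAAT was in 2 of the 13 and in 4 of the 28, against 6.49% of all windows, and ACAAAG in 3 and in 4, against 11.6%. Of the other words, CCGGAAG was in 1 of the 10 windows (10.7% of all windows), CCAAT in 4 (32.7%), GGGCGG in 6 (53.7%), CATGCGC in 1 (4.53%), AAGATGG in 0 (3.36%) and TATAAA in 0 (9.0%). A missing word says only that these letters are not in the window. No summit lay in the windows of SRSF6, HNRNPU and HNRNPA2B1, and no replicate 3 summit lay in any of the 10. The replicate 2 summit of HNRNPK and the replicate 1 summit of SRSF10 were also outside the windows. The bases under all of these summits, and under the summits of RBM39, were therefore not searched.

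The same word was then counted over all coding genes with a start in the table. That table leaves out chromosome 8 and also genes of other chromosomes, RBM39, HNRNPA1 and SRSF2 among them. Of the 549 such genes with TCGCGAG before a start, 118 had summits of at least 2 libraries within 5 kb of an end (21.5%), against 3.64% of the 15843. Without the splicing factor genes the count was 114 of 544 (21.0%). By library the shares were 26.4%, 17.3% and 30.8% in replicates 1, 2 and 3, against 3.6%, 3.09% and 16.0%. For genes with AACAAT the share with at least 2 libraries was 3.29%, and for those with ACAAAG 3.7%. Among the other words it ran from 2.04% for AAGATGG to 4.79% for CCGGAAG. Leaving out replicate 1 or 3 moved the count for TCGCGAG to 57 (10.4%, against 2.06%) and 68 (12.4%, against 1.16%). These are counts of letters beside summits with no control library, and what was bound there was not tested.

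**Figure D4:**
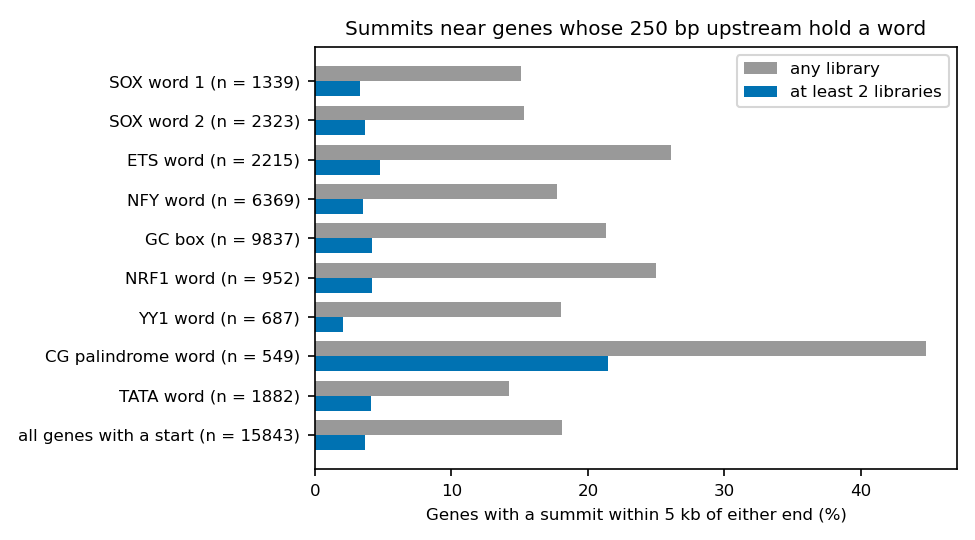
Share (%) of coding genes with a summit within 5 kb of either end, in any library (grey) and in at least 2 libraries (blue), for genes with each of 9 words in the 250 bases before a start and, at the bottom, for all 15843 genes with a start. The genes with the CG palindrome word stand at 44.8% and 21.5%, against 18.1% and 3.64% for all.

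The windows of the genes with summits of at least 2 libraries had a median GC content of 65.4% (59.2 to 73.6%) and a median of 25 CpG dinucleotides. Windows of genes with 1 library had medians of 65.6% and 26, those of genes with no library within 5 kb 63.8% and 21.5, and those of all coding genes 62.0% and 16. The part of CpG content in the shares was not tested.

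Of the 43 genes, 26 had no summit within 5 kb of an end in any library: 18 HNRNP genes, 6 SRSF genes, U2AF1 and TRA2A. Their nearest summits were at a median of 276 kb, and 19 lay over 100 kb away. These are distances to the nearest summit of any library, and the same figures were not computed over all coding genes. For each library alone, the median over all coding genes was 911, 1023 and 155 kb in replicates 1, 2 and 3. That is an unlike measure, because it takes 1 library at a time and includes genes near a summit. Several of the best-studied members were among the 26. SRSF1, the prototype SR protein, was 345 kb from the nearest summit, SRSF2 176 kb, HNRNPA1 605 kb, HNRNPC 105 kb, HNRNPL 274 kb and HNRNPM 343 kb. U2AF1 lay 155 kb from the nearest summit of each of the 3 libraries. The 6 copy genes named HNRNPCL or HNRNPA1L had none within 5 kb, where 17.8% of all coding genes had one. Their nearest summits were at 8.70 to 1453 kb. The 4 HNRNPCL genes lie close together on chromosome 1 and share their nearest summits in replicates 2 and 3. How well reads of 36 bp can be placed on such copies was not tested. These examples were chosen after their values were seen.

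Split by family, 6 of 12 SRSF genes (50.0%), 8 of 26 HNRNP genes (30.8%) and 3 of the other 5 (60.0%) lay within 5 kb of a summit in 1 library or more, against 17.8% of all coding genes. At least 2 libraries had one at 3 SRSF genes (25.0%), 4 HNRNP genes (15.4%) and 1 of the other 5 (20.0%), RBM39, against 3.91% of all coding genes. The families are small, and the differences between them were not tested.

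Other splicing genes were counted in the same way. The core of the spliceosome, with 50 genes of the snRNP proteins, SF3 subunits and their partners, had 10 near a summit of any library (20.0%) and 1 in at least 2 libraries (2.0%), CDC5L, against 17.8% and 3.91% of all coding genes. Other splicing regulators had 13 of 38 (34.2%) and 4 (10.5%). The kinases of SR proteins with their importer had 4 of 10 (40.0%) and 1 (10.0%), CLK2. RBM genes other than RBM39 had 13 of 52 (25.0%) and 3 (5.77%), and cytosolic ribosomal protein genes 36 of 88 (40.9%) and 8 (9.09%). The 43 genes described here thus had a share in any library close to that of ribosomal protein genes (39.5% and 40.9%). Their share in at least 2 libraries was larger (18.6% and 9.09%). None of these differences was tested.

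**Figure D5:**
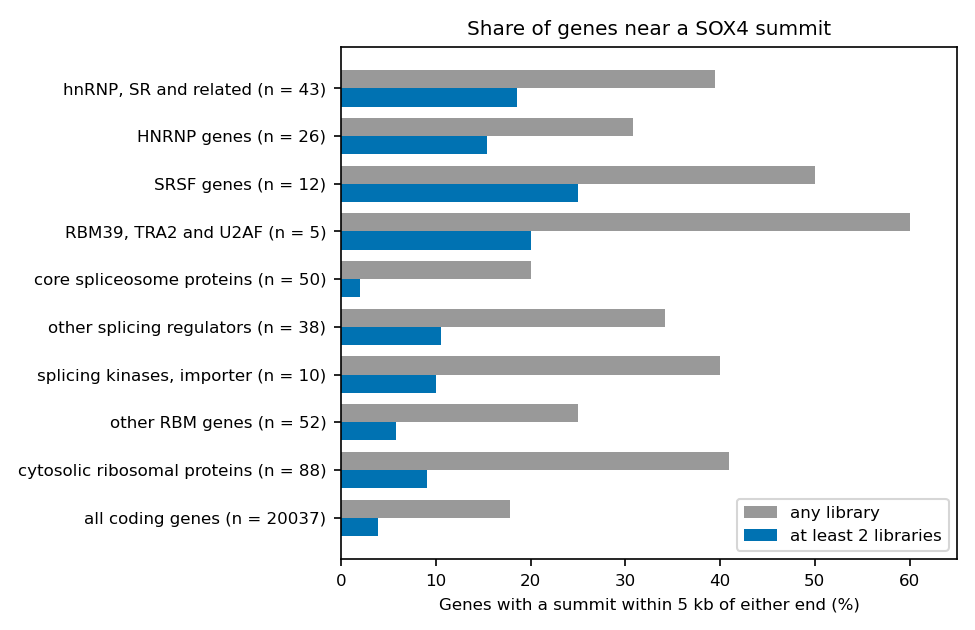
Share of genes (%) with a summit within 5 kb of either end in any library (grey) and in at least 2 libraries (blue), for the 43 genes, their 3 families, 5 other gene lists and all coding genes, with the number of genes in brackets. The 43 genes stand at 39.5% and 18.6%, against 17.8% and 3.91% for all coding genes.

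The genes of those lists with a reproducible region included PUF60, a U2AF-related factor, with scores of 28.2, 12.4 and 7.01 in replicates 1, 2 and 3 at a region whose midpoint is 22 bp from a gene end. TARDBP, which encodes TDP-43, had scores of 16.5 and 6.67 in replicates 1 and 2 at a region 186 bp from an end, and replicate 3 had a summit outside that region, 125 bp from an end. QKI, an RNA-binding regulator, had 4.15 and 10.2 in replicates 1 and 3 at 1035 bp, and CLK2, a kinase of SR proteins, 5.37 and 5.49 in the same libraries at 684 bp. Among RBM genes, RBM26 had 7.83, 4.65 and 9.11 in the 3 libraries at 56 bp, and RBM4B had 8.60 and 4.42 in replicates 2 and 3 at 12 bp. The ribosomal protein genes with one were RPL41, RPS15A, RPS19, RPS20 and RPS6. KHDRBS1, RBM7, RPL17, RPL26 and RPL7 also had summits of 2 libraries, more than 200 bp apart, and were named after their values were seen, as was CDC5L.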

How the data were processed

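SOX4 ChIP-seq summits of 3 BT549 libraries were analysed. The submitters' processing notes name BWA, SAMtools, MACS2 and hg19, without versions. The positions are those of GRCh38: 41 of 54 contig names carry KI270 identifiers, and the highest position on chromosome 17 is 83247361. The deposited value per summit is the authors' −log10 of a p or q value. Summits were made per library, and filters are not given in the sources used here.

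From these files, the distance of the nearest summit to either end of each of the 20037 coding genes (RefSeq, GRCh38.p14) was computed with Python 3.11.15 and pandas 2.3.3, and a gene counted as called within 5 kb. Summits linked by gaps of at most 200 bp formed regions, reproducible where at least 2 libraries contributed. Starts and sequences came from the RefSeq promoter table, which matched 37 of the 43 genes; orientation was checked on 1365 overlapping windows. The steps were tested on simulated data. The older symbol PRPF4B was matched through the table of synonyms.

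No test was made, because the genes and lists were chosen with earlier results of these data known and there is 1 group. The text names RBM39, every gene of the families with a summit within 5 kb, the 3 closest beyond it, and list genes with a reproducible region, and marks other names. Alternatives changed the distance, scores, list length, number of libraries, gap, gene ends and libraries.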

Additional observations from a re-analysis of the deposited data

Results flagged for a closer look

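Summits outside the assembled chromosomes, on contigs or the mitochondrial genome, are a signal that no count of genes used. The lists held 104, 125 and 126 of them in replicates 1, 2 and 3, and without a control library their background level is unknown.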

How the results depend on the processing

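The count of 17 splicing factor genes with a summit of any library fell to 11 (25.6%, against 9.25% of all coding genes) with only summits at or above the median score of their list and to 10 (23.3%, against 8.43%) with lists of equal length. Leaving out 1 library gave 9 to 17 genes (20.9 to 39.5%, against 5.75 to 17.0%). The count of 8 genes with at least 2 libraries was 5 with lists of equal length (11.6%, against 2.25%). It was 4 with all 3 libraries required (9.3%, against 1.07%) and 4 to 7 without 1 library (9.3 to 16.3%, against 1.3 to 2.41%). The 7 genes with a reproducible region became 2 with all 3 libraries required, RBM39 and HNRNPH3 (4.65%, against 0.739%). They became 3 with a gap of 100 bp (6.98%, against 2.03%) and 3 to 4 without 1 library (6.98 to 9.3%, against 1.06 to 1.72%). HNRNPK, RBM39 and HNRNPH3 were those left without replicate 3. The other planned settings kept each count within 1.5 times. RBM39 had a summit of every library used in each setting run; its distance to a start was not run. Of 284 values for families, lists, all coding genes and the word TCGCGAG, 178 stayed within 1.5 times and 106 did not. The settings for the word TCGCGAG were chosen after the data were seen. No paired analysis was possible because there is 1 group. Depth is unknown, so a gene without a summit is not shown to be unbound.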
